A study of Homo sapiens with 10 samples.

Results

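The comparison set the 3 control libraries of SNB19 against the 2 control libraries of U87, chosen by their labels as the libraries in which MEOX2, the homeobox gene the study manipulates, was left alone, and it drew on 5 of the 10 RNA-seq libraries of the series. Both are established human glioblastoma lines that grow attached to plastic. The SNB19 controls had been transiently transfected with a Scramble siRNA by a lipid reagent, and the U87 controls were stable cells made with an empty-vector lentivirus and puromycin selection. Each line was therefore measured under 1 kind of delivery, and the line cannot be told apart from transfection, infection or drug selection in any value below. The other 5 libraries, 3 of SNB19 given MEOX2 siRNA and 2 of U87 made to overexpress MEOX2, share no library with the controls and were used as a second look at the line difference. The titles of all 4 U87 libraries name MEOX2, but the treatment labels of U87-EV-2 and of the overexpressing libraries name MEOX3, MEOX4 and MEOX5, and the titles were followed. The labels do not state whether the libraries of a group came from separate cultures, so the p-values measure only the spread between these libraries, which may be technical.

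Glioblastoma lines are used as models of the most malignant astrocytic tumour, but lines kept in serum often lose the markers of mature astrocytes. SNB19 is known to share its origin with the U251 line, and both SNB19 and U87 are known for loss of the CDKN2A locus. Such lines differ in which developmental regulators, matrix genes and growth factor circuits they keep on, which is the baseline on which a factor such as MEOX2 is switched off in the one line and on in the other.

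The control libraries held 13718556 to 16560324 counts, and U87-EV-1 stood apart from all other libraries. Its FPKM values (fragments per kilobase of gene, scaled to the total count of the library, so that levels of different genes can be compared) summed to 355931, against 260547 to 270159 in the other 4 controls. Pearson's r between U87-EV-1 and U87-EV-2 was 0.939 across the tested genes on the log2 CPM scale, against 0.990 to 0.991 between the SNB19 controls and 0.987 between the treated U87 libraries. Genes are not independent replicates, so these r are descriptions. The difference followed gene length: the median log2 ratio of U87-EV-1 to U87-EV-2 was 0.58 in the shortest of 5 equal groups of tested genes, 75 to 2351 bp, and -0.60 in the longest group. Against U87-EV-1 the median log2 fold change of SNB19 over U87 ran from -0.49 in the shortest to 0.70 in the longest group, whereas against U87-EV-2 it ran from 0.23 to -0.02 and in the treated libraries from 0.29 to -0.05. Every difference was therefore fitted with both U87 libraries and again with U87-EV-2 as the only U87 library, where the lone library was assumed to vary like the SNB19 libraries. The 2 fits share all libraries but U87-EV-1. Agreement between them is therefore partly built in and is not independent support. The fold changes rest on counts scaled by TMM, which gave U87-EV-1 a factor of 0.728 and the other controls 1.0 to 1.12, so they do not equal ratios of the FPKM values.

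**Figure D1:**
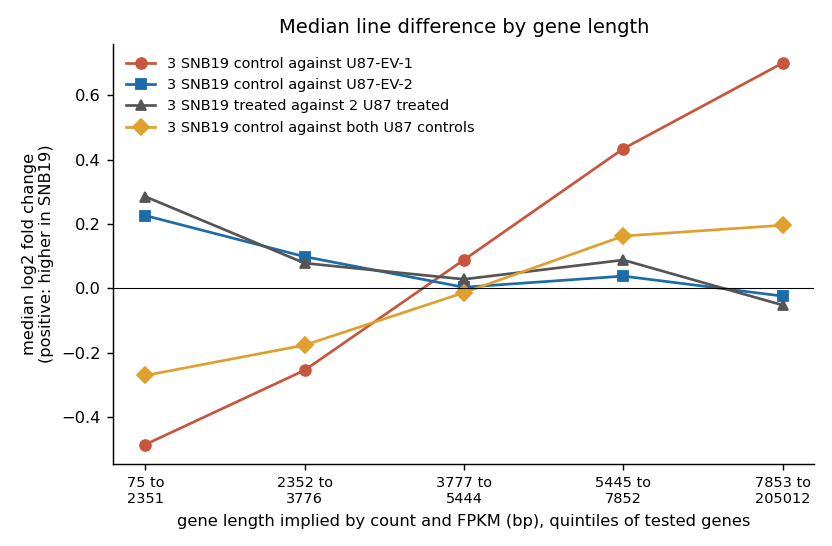
Median log2 fold change of SNB19 over U87 (vertical axis) in 5 equal groups of tested genes by length in bp (horizontal axis), for 4 fits. With U87-EV-1 the medians climb from -0.49 to 0.70, while with U87-EV-2 and in the treated libraries they move less and the other way.

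The lines differed in 34.1% of the genes tested. Of 16158 genes, 5517 were called, with an adjusted p under 0.05 by edgeR's quasi-likelihood test with Benjamini-Hochberg adjustment and an absolute log2 fold change over 1. Of these, 2992 were higher in SNB19 (18.5% of genes tested) and 2525 were higher in U87 (15.6%). With U87-EV-2 alone, 20.6% of the genes then tested were called higher in SNB19 and 14.9% higher in U87. Genes called in the same direction in both fits, written below as called in both fits, numbered 4567, of which 2672 were higher in SNB19 (16.5%) and 1895 in U87 (11.7%). These last shares are the background against which the counts of each gene group are read. In any group, a member with reads in 1 line only could pass the count filter through that line alone. The counts are therefore of members tested and not of whole lists. No gene was called in opposite directions by the 2 fits, and 89.3% of the calls for SNB19 but 75% of those for U87 stood with U87-EV-2 alone.

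Most of the difference was also present in the treated libraries. There, 27.3% of genes tested were called higher in SNB19 and 20.3% higher in U87, and 3729 of the 4567 genes called in both control fits were called in the same direction (81.7%). Another 27 were called in the opposite direction. The treated counts of each gene group below are read against the 27.3% and 20.3%. Across the 15547 genes tested in both sets, r between the log2 fold changes was 0.89, a description across genes whose line-specific levels are shared by the cells of both sets. Many of the differences were between presence and absence: 672 genes called in both fits for SNB19 had no read in either U87 control, and 112 called for U87 had no read in any SNB19 control. For such genes only a lower bound of the fold is given, computed against 3 reads over the whole group, and for genes with 1 to 3 reads the ratio is given with a 95% interval that covers counting error only. Each SE below is the absolute log2 fold change divided by the square root of the test's F statistic. It is not a separately estimated error, and it is only a rough guide where a line had few reads.

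**Figure D2:**
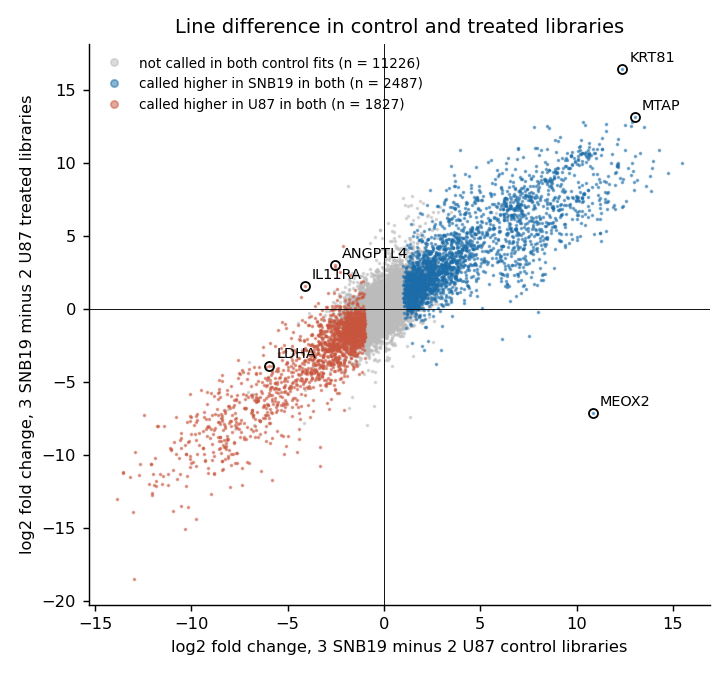
Log2 fold change of SNB19 minus U87 in the control libraries (horizontal axis) and in the treated libraries (vertical axis), 1 point per gene tested in both, without Y-linked genes and XIST. Most points lie along the diagonal, and MEOX2, ANGPTL4 and IL11RA lie in the quadrants of opposite sign; fitted values beyond about 8 on either axis often rest on a group with no reads and are not fold estimates.

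The most abundant genes with a more than 32-fold difference in favour of SNB19 included a hair keratin and cancer-testis antigens. KRT81, a keratin of hair and hair follicles, had an FPKM of 495, 530.3 and 482 in SNB19 and 0.128 and 0 in U87 (log2 fold change 12.37 ± 0.84 SE, adjusted p = 0.000602). U87-EV-1 had 4 reads of it and U87-EV-2 had 0. With U87-EV-2 alone the fitted log2 fold change was 16.79, which rests on a group with no reads. SNCG, which encodes gamma-synuclein, was at 84.6, 97.3 and 85.9 in SNB19 and 1.74 and 0.342 in U87 (log2 fold change 5.91 ± 0.79 SE, adjusted p = 0.00397). EEF1A2, the translation elongation factor form of neurons and muscle, was at 89.1, 91.4 and 83.7 in SNB19 and 0.0882 and 0.0145 in U87 (log2 fold change 10.23 ± 0.69 SE, adjusted p = 0.000593). In each of the 3 genes the lowest SNB19 library was far above the higher U87 library. MAGEA3, MAGEA6, MAGEA12, MAGEB2 and CSAG1 encode antigens normally confined to the germ line. MAGEA3 stood at 93.6, 98.6 and 93.2 in SNB19 and 0.0692 and 0.199 in U87 (log2 fold change 9.11 ± 0.34 SE, adjusted p = 0.000381), and MAGEA12 at 67, 65.4 and 65.2 in SNB19 and 0 in both U87 libraries, at least 995-fold higher in SNB19. These X-linked genes are near-identical copies, so the split of reads among them is uncertain. PDLIM4, a LIM domain protein of actin fibres, CADM4, a cell adhesion molecule, and LDOC1, a nuclear protein of the X chromosome, followed, with LDOC1 at 48.7, 52.7 and 44.8 in SNB19 and 0 in both U87 libraries and at least 521-fold higher in SNB19. SEMA3F, a secreted axon guidance cue, was at 45.9, 47 and 48.3 in SNB19 and 0 and 0.0147 in U87, a ratio of 5292 (95% interval 949.6 to 209053).

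In favour of U87, the most abundant such genes encoded a glycolytic enzyme, secreted factors and fibrillar collagen. LDHA, the lactate dehydrogenase subunit that turns pyruvate into lactate, had an FPKM of 6.63, 6.54 and 6.93 in SNB19 and 307 and 339 in U87 (log2 fold change -5.98 ± 0.23 SE, adjusted p = 0.000381). Both U87 libraries were far above the SNB19 libraries, and in the treated libraries the difference had the same sign with a log2 fold change of -3.86. CSF3, the granulocyte colony-stimulating factor, was at 0.19, 0.197 and 0.29 in SNB19 and 336 and 177 in U87 (log2 fold change -10.59 ± 0.61 SE, adjusted p = 0.000428). PTX3, a secreted pentraxin, was at 2.43, 2.03 and 1.79 in SNB19 and 83 and 96.4 in U87, and PLTP, the phospholipid transfer protein, at 3.37, 2.95 and 3.22 in SNB19 and 144 and 183 in U87. TFPI2, an inhibitor of serine proteases in the matrix, was at 0.045, 0 and 0.024 in SNB19 and 159 and 190.1 in U87, a ratio of 9197 (95% interval 3147 to 44605) in favour of U87. COL1A1, a chain of type I collagen, was at 4.23, 5.32 and 4.59 in SNB19 and 77.9 and 188 in U87 (log2 fold change -5.12 ± 0.33 SE, adjusted p = 0.000524). COL1A2, the other chain, was at 0.0758, 0.0653 and 0.0982 in SNB19 and 59.9 and 136 in U87. Both were higher in each U87 library than in any SNB19 library, with U87-EV-2 above U87-EV-1. In the treated libraries COL1A1 differed much less, at 7.22, 6.49 and 6.75 in SNB19 and 15.1 and 13.3 in U87 (log2 fold change -1.29). The treated log2 fold change of COL1A2 was -8.49. FLNC, a filamin that crosslinks actin, was at 0.54, 0.416 and 0.292 in SNB19 and 74.2 and 179 in U87 (log2 fold change -8.54 ± 0.46 SE, adjusted p = 0.000398). MT1E, VAMP5, CYBA and G0S2 completed the group, and in each of these U87-EV-1 was above U87-EV-2. CYBA, a subunit of the NADPH oxidase, was at 0, 0.0217 and 0.0192 in SNB19 and 204 and 56.6 in U87.

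**Figure D3:**
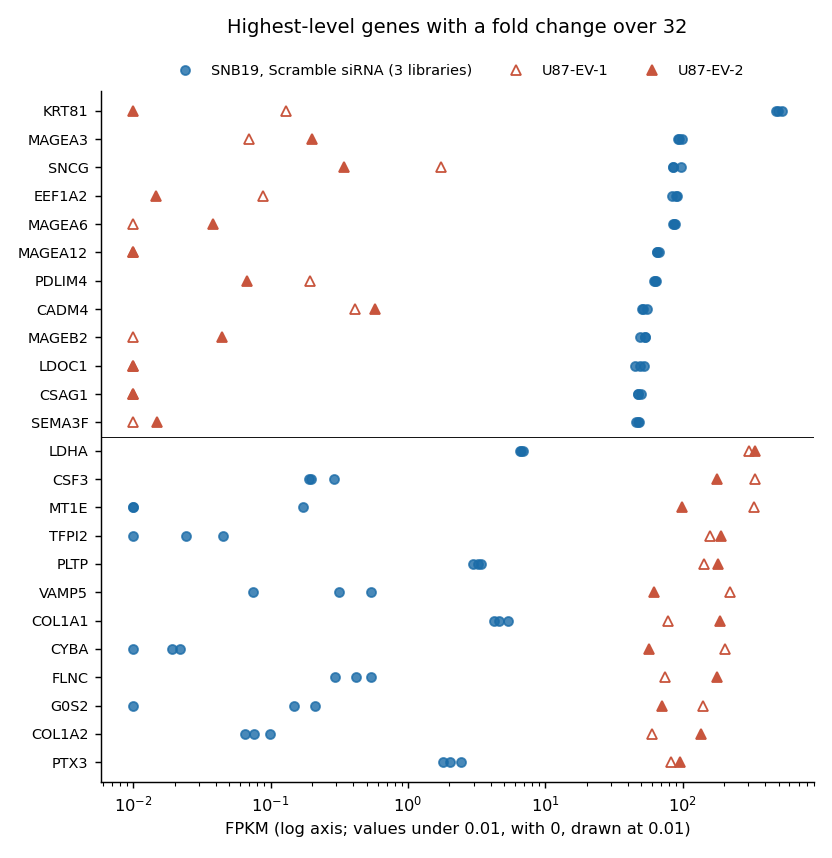
FPKM of the 24 most abundant genes with a more than 32-fold difference (horizontal log axis, values under 0.01 drawn at 0.01), with filled circles for the 3 SNB19 controls and open and filled triangles for U87-EV-1 and U87-EV-2. In every gene the SNB19 libraries lie on one side of both U87 libraries, and the triangles lie apart by up to several-fold in genes such as CYBA and MT1E.

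MEOX2 itself was present in SNB19 alone among the controls. Its FPKM was 6.01, 6.53 and 7.09 in SNB19 and 0 in both U87 libraries, with 748 reads over the 3 SNB19 libraries and none over the 2 U87 libraries, so that it was at least 127-fold higher in SNB19. In the treated libraries, where MEOX2 is the target of the siRNA and the gene overexpressed, the order was reversed and the FPKM was 1.38, 1.11 and 1.39 in SNB19 and 159.5 and 145 in U87. CTSS, which encodes the lysosomal protease cathepsin S, was at 7.07, 5.95 and 7.1 in SNB19 and 6.03 and 8.24 in U87 and was not called (log2 fold change -0.45 ± 0.17 SE, adjusted p = 0.0824). In FPKM the SNB19 values lay inside the range of the U87 values apart from 1 library just below it. On the TMM-scaled counts all SNB19 libraries lay below both U87 libraries. With U87-EV-2 alone the log2 fold change of CTSS was also -0.45. In the treated libraries CTSS was at 1.43, 1.42 and 1.17 in SNB19 and 35.5 and 35.5 in U87 (log2 fold change -4.95). ANGPTL4, a secreted inhibitor of lipoprotein lipase, was higher in U87, at 2.41, 2.09 and 1.92 in SNB19 and 12.3 and 6.13 in U87 (log2 fold change -2.57 ± 0.45 SE, adjusted p = 0.00933), and its call ended without SNB19-NC-2 (adjusted p 0.0504). IL11RA, the receptor for interleukin-11, was also higher in U87, at 0.0566, 0.154 and 0.106 in SNB19 and 1.56 and 1.18 in U87 (log2 fold change -4.13 ± 0.49 SE, adjusted p = 0.00273). The last 2 genes had the opposite order in the treated libraries, with ANGPTL4 at 8.0, 9.84 and 10.3 in SNB19 and 0.771 and 1.13 in U87 and IL11RA at 1.33, 0.782 and 0.648 in SNB19 and 0.336 and 0.192 in U87. The 121 bases before the MEOX2 gene of GENCODE v29, at chr7:15686813-15686933 on the minus strand of GRCh38.p14, from the RefSeq promoter table, are shown because the gene is the one the study turns on, and their 11 CG dinucleotides, the sites of DNA methylation, are in capitals.
MEOX2: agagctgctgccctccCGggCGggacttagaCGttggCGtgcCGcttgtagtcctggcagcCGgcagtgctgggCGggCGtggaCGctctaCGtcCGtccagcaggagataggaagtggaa

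Among markers of astrocytes, GFAP, AQP4, S100B and ALDH1L1 were at or near 0 in both lines and SLC1A3 was not. GFAP, the astrocyte intermediate filament, stayed below an FPKM of 1 in all 5 libraries, at 0.374, 0.397 and 0.319 in SNB19 and 0.204 and 0.188 in U87, and was not called (log2 fold change 0.49 ± 0.29 SE, adjusted p = 0.228). AQP4 had no read in any control, and S100B and ALDH1L1 had none in U87 and 7 and 6 reads in SNB19. SLC1A3, the glutamate transporter GLAST, was at 17.1, 16.4 and 17.5 in SNB19 and 2.83 and 7.85 in U87 (log2 fold change 1.39 ± 0.33 SE, adjusted p = 0.0239), and its call ended without any 1 SNB19 library (adjusted p 0.0829 to 0.0872) and by size without U87-EV-1 (log2 fold change 0.96). The 9 markers of astrocytes and glioma together summed to 58.7 to 60.8 FPKM in SNB19 and to 10.6 and 20.2 in U87, and those of neurons to 3.1 to 3.18 and to 3.76 and 5.38. Markers of oligodendrocytes summed to at most 0.611 FPKM in a library. Those of leukocytes summed to 2.58 to 5.49, with CSF1R the highest, while PTPRC, the pan-leukocyte antigen CD45, had 5 reads in SNB19 and none in U87. ITGAM, another leukocyte marker, was at 0.393, 0.436 and 0.60 in SNB19 and 0 in both U87 libraries and was called in both fits. Among markers of epithelial cells SNB19 carried KRT8, KRT18 and KRT19, which brought the sum to 71.5 to 77.1 FPKM against 0.90 to 1.52 in U87, whereas EPCAM and CDH1, the epithelial adhesion molecules, stayed below 1 in every library. KRT18 was at 28.7, 28.6 and 26.9 in SNB19 and 0.0577 and 0.0442 in U87 (log2 fold change 8.65 ± 0.30 SE, adjusted p = 0.000381). Markers of fibroblasts and smooth muscle summed to 10.6 to 12.2 in SNB19 and to 144 and 336 in the 2 U87 libraries, nearly all of it type I collagen. The call of KRT19 ended without any 1 SNB19 library (adjusted p 0.0918 to 0.099). Whether these values come from all cells or from a part of them cannot be told from bulk RNA, in which fewer cells of a type and less RNA per cell look alike.

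More genes of glia and neural stem cells were called for SNB19 than for U87. Of 19 members tested of a list of 35, 10 were called in both fits for SNB19 and 3 for U87, 52.6% and 15.8%. The median log2 fold change was 1.19, against 0.02 over all genes tested. SOX2, the transcription factor of neural and glioma stem cells, was at 12.7, 14.4 and 12.4 in SNB19 and 0 and 0.0283 in U87, a ratio of 768 (95% interval 138 to 30349.8). L1CAM, a neural adhesion molecule, was at 11, 11 and 11.6 in SNB19 and 0.017 and 0.00978 in U87, a ratio of 631 (95% interval 216 to 3060.3). NES, the intermediate filament nestin, was at 9.52, 10.5 and 9.22 in SNB19 and 3.04 and 2.51 in U87 (log2 fold change 1.40 ± 0.27 SE, adjusted p = 0.0126), and SOX9 at 19.1, 17.8 and 17.9 in SNB19 and 2.97 and 8.21 in U87 (log2 fold change 1.42 ± 0.33 SE, adjusted p = 0.0216). The SNB19 libraries were above both U87 libraries in each of these 4 genes. HES1, ITGA6, NFIA, NFIB, SALL2 and SOX4 were the others called for SNB19, of which SOX4 had the opposite sign, uncalled, in the treated libraries. The 3 members called for U87 were CSPG4, CD44 and VCAN, which act at the cell surface and in the matrix. CSPG4, also known as NG2, was at 1.95, 1.65 and 1.96 in SNB19 and 9.65 and 22.7 in U87 (log2 fold change -3.42 ± 0.28 SE, adjusted p = 0.000937), and CD44, the hyaluronan receptor, at 29.3, 28.2 and 29.2 in SNB19 and 58.1 and 74.6 in U87 (log2 fold change -1.57 ± 0.17 SE, adjusted p = 0.00219). VCAN, the proteoglycan versican, was at 3.27, 3.38 and 3.43 in SNB19 and 4.89 and 26 in U87 (log2 fold change -2.43 ± 0.55 SE, adjusted p = 0.020), where U87-EV-2 was further from SNB19 than U87-EV-1. Some of these calls ended when 1 library was left out. That of NES ended without any 1 SNB19 library (adjusted p 0.0523 to 0.0618), that of SOX9 ended without any 1 SNB19 library (adjusted p 0.0771 to 0.083), that of VCAN ended without any 1 SNB19 library (adjusted p 0.0838 to 0.0853), that of HES1 ended without any 1 SNB19 library (adjusted p 0.128 to 0.157) and by size without U87-EV-2 (log2 fold change 0.70), and that of NFIA ended without SNB19-NC-2 or SNB19-NC-3 (adjusted p 0.0573 to 0.0576). OLIG2, a factor of the oligodendrocyte lineage, was low in both lines, at 1.17, 1.15 and 1.13 in SNB19 and 1.61 and 1.4 in U87, and was not called (log2 fold change -0.79 ± 0.28 SE, adjusted p = 0.0694).

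More regulators and markers of mesenchyme were called for U87 than for SNB19. Of 32 tested, 14 were called in both fits for U87 and 4 for SNB19, 43.8% and 12.5%, with a median log2 fold change of -0.96. PRRX1, a homeobox gene of mesenchyme, was at 0 in all SNB19 libraries and 9.4 and 16.6 in U87, at least 2079-fold higher in U87. FOXC2, a forkhead factor of mesenchyme, was at 0.0416, 0.0251 and 0 in SNB19 and 4.61 and 11 in U87, a ratio of 435 (95% interval 148 to 2114) in favour of U87. CDH2, which encodes N-cadherin, was at 4.28, 4.48 and 4.03 in SNB19 and 7.94 and 17.5 in U87 (log2 fold change -1.88 ± 0.24 SE, adjusted p = 0.00358). VIM, which encodes vimentin, was at 160.2, 160.2 and 163 in SNB19 and 687 and 241 in U87 (log2 fold change -2.03 ± 0.56 SE, adjusted p = 0.0366), but with U87-EV-2 alone its log2 fold change was -0.73 and it was not called. THY1 and CHI3L1 were among the 4 members called the other way. THY1, a surface glycoprotein of fibroblasts and neurons, was at 29.9, 30.3 and 29.7 in SNB19 and 0 in both U87 libraries, at least 1378-fold higher in SNB19, and CHI3L1, a secreted glycoprotein also known as YKL-40, was at 135, 143 and 140.5 in SNB19 and 41.1 and 57.1 in U87 (log2 fold change 1.15 ± 0.17 SE, adjusted p = 0.0058). The call of CHI3L1 ended without SNB19-NC-2 (adjusted p 0.0504), and that of VIM ended without any 1 SNB19 library (adjusted p 0.133) and by size without U87-EV-1 (log2 fold change -0.73).

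**Figure D4:**
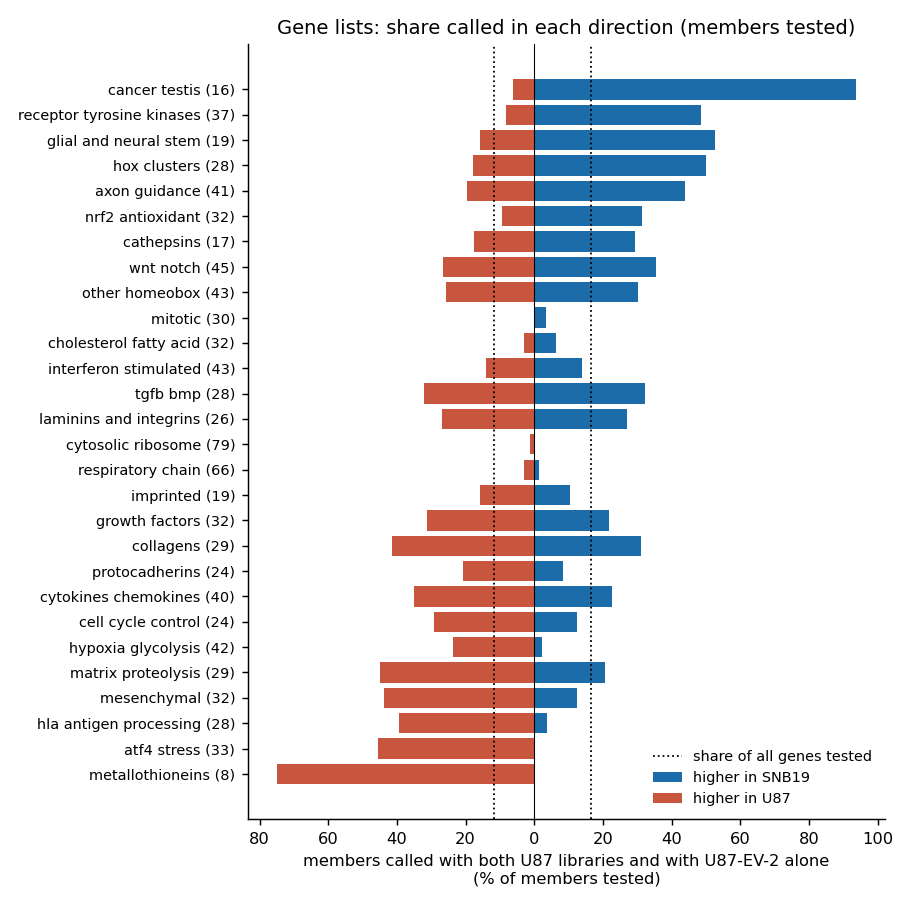
Share of each plotted gene list called in both fits, in percent of members tested (horizontal axis), to the right for genes higher in SNB19 and to the left for genes higher in U87, with the number tested in brackets after the name of the list. Dotted lines mark the shares over all genes tested, 16.5% and 11.7%. The cancer-testis bar covers the 16 of 40 members that passed the count filter. The metallothionein bar reaches 75% for U87, and its uncalled members, SLC30A1 and MTF1, are not metallothioneins.

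The lines expressed different collagens. Of 29 collagen chains tested, 9 were called in both fits for SNB19 and 12 for U87, both above the shares of all genes. The median log2 fold change was 0.21, and -0.27 with U87-EV-2 alone. The 3 with the largest difference in favour of SNB19 were chains of basement membranes, although COL4A6, another such chain, was called for U87. COL4A1 was at 4.56, 4.86 and 5.13 in SNB19 and 0 in both U87 libraries, at least 554-fold higher in SNB19. COL4A2 was at 12.4, 13.1 and 13.3 in SNB19 and 0.225 and 0.232 in U87 (log2 fold change 5.43 ± 0.25 SE, adjusted p = 0.000381), and COL18A1, the source of endostatin, at 4.29, 4.54 and 4.13 in SNB19 and 0.0436 and 0.0417 in U87 (log2 fold change 6.25 ± 0.27 SE, adjusted p = 0.000381). Among fibrillar chains, COL1A1, COL1A2, COL5A2 and COL5A3 were called for U87 and COL11A2 for SNB19, and COL5A1, at 24.7, 23.9 and 24.3 in SNB19 and 8.86 and 28.6 in U87, was not called (log2 fold change 0.11 ± 0.37 SE, adjusted p = 0.834). Beside COL1A1 and COL1A2, COL5A2 was at 0.786, 0.577 and 0.622 in SNB19 and 6.34 and 23.2 in U87 (log2 fold change -4.74 ± 0.47 SE, adjusted p = 0.00167). COL6A1 was high in both lines, at 167, 169 and 168 in SNB19 and 85.3 and 146 in U87, and was not called (log2 fold change 0.21 ± 0.20 SE, adjusted p = 0.443). Laminins and integrins were split 7 to 7 among 26 tested in both fits (26.9% each), with a median log2 fold change of -0.06. The median was -0.59 with U87-EV-2 alone and -0.80 in the treated libraries, where 8 were called for SNB19 and 12 for U87. ITGA6 and ITGB4, parts of epithelial adhesion to laminin, were higher in SNB19, with ITGB4 at 10.4, 11.4 and 10.9 in SNB19 and 0.275 and 0.126 in U87 (log2 fold change 5.30 ± 0.50 SE, adjusted p = 0.00138). ITGA3, a laminin-binding integrin chain, was higher in U87, at 83.7, 84.2 and 80.6 in SNB19 and 165 and 321 in U87 (log2 fold change -1.87 ± 0.24 SE, adjusted p = 0.00348).

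Of the proteases of the matrix and their inhibitors more were called for U87 than for SNB19, 13 against 6 of 29 tested in both fits (44.8% and 20.7%). SERPINB2, an inhibitor of plasminogen activators, was at 0 in all SNB19 libraries and 2.59 and 4.06 in U87, at least 178-fold higher in U87. ADAMTS5, an aggrecan-cleaving protease, was at 0.0133, 0 and 0 in SNB19 and 1.74 and 6.85 in U87, a ratio of 1107 (95% interval 306 to 9155) in favour of U87. MMP9, a gelatinase, was on the other side at 11.1, 15.4 and 11.6 in SNB19 and 0 and 0.0305 in U87, a ratio of 684 (95% interval 123 to 27033) in favour of SNB19. PLAU, the urokinase, was at 64.4, 68.5 and 68.9 in SNB19 and 29.1 and 32 in U87 and past the p threshold but not the fold threshold (log2 fold change 0.75 ± 0.18 SE, adjusted p = 0.0259). Among the cathepsins and cystatins, 5 of 17 were called in both fits for SNB19 and 3 for U87, and in the treated libraries 4 and 7. CTSK, a collagen-degrading cathepsin, was at 4.51, 4.21 and 4.71 in SNB19 and 57.1 and 66.3 in U87 (log2 fold change -4.16 ± 0.18 SE, adjusted p = 0.000381), CTSL at 41.2, 41.4 and 44.9 in SNB19 and 181 and 129.9 in U87 (log2 fold change -2.31 ± 0.31 SE, adjusted p = 0.00393), and CTSH, an aminopeptidase, at 7.74, 8.54 and 8.28 in SNB19 and 0.0105 and 0.0241 in U87, a ratio of 374 (95% interval 128 to 1813) in favour of SNB19. CTSD, the aspartic cathepsin, was at 96.6, 99.1 and 98.5 in SNB19 and 198 and 58.6 in U87 and was not called (log2 fold change -0.90 ± 0.60 SE, adjusted p = 0.273), with U87-EV-1 above and U87-EV-2 below all SNB19 values. With U87-EV-2 alone its log2 fold change was 0.59.

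HOX genes, which record the position along the body axis, were called for SNB19 more than for U87. Of 28 tested, 14 were called in both fits for SNB19 and 5 for U87, 50% and 17.9%, and the median log2 fold change was 1.76. The list held 38 genes found in the data, and some of those tested passed the count filter through reads in SNB19 alone. The HOXB cluster was split. HOXB2 was at 0.155, 0.125 and 0.0827 in SNB19 and 16 and 10.5 in U87 (log2 fold change -7.17 ± 0.48 SE, adjusted p = 0.000579) and HOXB4 at 0.836, 0.757 and 0.463 in SNB19 and 1.19 and 2.08 in U87 (log2 fold change -1.58 ± 0.33 SE, adjusted p = 0.0162), both higher in U87. HOXB3, which lies between them, was called for SNB19, and their neighbours on the posterior side, HOXB6 to HOXB13, formed a run of tested genes higher in SNB19 at chr17:48595751-48817214 together with TTLL6. Of these, HOXB7 was at 11.3, 12.4 and 11.3 in SNB19 and 0.365 and 0.233 in U87 (log2 fold change 4.86 ± 0.36 SE, adjusted p = 0.000766), and HOXB13 at 4.35, 4.02 and 3.94 in SNB19 and 0 in both U87 libraries, at least 111-fold higher in SNB19. HOXC10 and HOXC13 had no read in U87 either, with HOXC10 at 6.71, 6.13 and 7.32 in SNB19 and 0 in both U87 libraries and HOXC13 at 4.71, 4.39 and 4.97 in SNB19 and 0 in both U87 libraries. HOXD13, the last gene of its cluster, was higher in U87, at 0.108, 0.0976 and 0 in SNB19 and 2.02 and 3.46 in U87 (log2 fold change -5.58 ± 0.67 SE, adjusted p = 0.00286). Among other homeobox genes 13 of 43 were called in both fits for SNB19 and 11 for U87, and in the treated libraries 12 and 19. The call of HOXB4 ended without any 1 SNB19 library (adjusted p 0.0535 to 0.0697). Besides MEOX2, MSX2, a target of BMP signals, was at 6.17, 5.78 and 6.07 in SNB19 and 0 in both U87 libraries, and EN1, a factor of the midbrain and hindbrain border, at 1.65, 1.69 and 1.16 in SNB19 and 0 in both U87 libraries. Beside PRRX1, ALX1, a factor of craniofacial mesenchyme, had no read in SNB19, at 0 in all SNB19 libraries and 3.21 and 3.35 in U87.

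Regulators of the cell cycle differed between the lines. CDKN1A, which encodes the cell cycle inhibitor p21, was at 25.9, 25.8 and 25.3 in SNB19 and 85.2 and 106 in U87 (log2 fold change -2.27 ± 0.16 SE, adjusted p = 0.000668). CCND1, which encodes cyclin D1, was at 25, 24.5 and 24 in SNB19 and 56.4 and 139.5 in U87 (log2 fold change -2.29 ± 0.28 SE, adjusted p = 0.00318), and MYC at 25.5, 24.8 and 23.3 in SNB19 and 46.1 and 85.1 in U87 (log2 fold change -1.75 ± 0.20 SE, adjusted p = 0.00235). CDKN1C, the imprinted inhibitor p57, was higher in SNB19, at 3.39, 3.18 and 3.46 in SNB19 and 0.050 and 0 in U87, a ratio of 96.7 (95% interval 26.6 to 801). Of 30 mitotic genes 1 was called in both fits, KIF20A, and none was called for U87. The call of KIF20A ended without any 1 SNB19 library (adjusted p 0.0905 to 0.0938). In the treated libraries 19 of them were called higher in SNB19 and 0 in U87, so the mitotic list differed in its count of calls between control and treated libraries.

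At the CDKN2A locus on chromosome 9 the lines shared one loss of signal and differed in its extent. CDKN2A had 1 read over the 3 SNB19 controls and none in U87, and CDKN2C, its relative on chromosome 1, had 2 and none. MGMT, the repair enzyme that removes alkyl groups from guanine, had no read in any of the 5 libraries. MTAP, the enzyme of methionine salvage beside CDKN2A, was at 4.75, 5.0 and 5.46 in SNB19 and 0 in both U87 libraries, with 3390 reads in SNB19, and was at least 575-fold higher there. It was part of a run of 9 neighbouring tested genes at chr9:20341665-22455740 in GENCODE v29 coordinates of GRCh38, from MLLT3 to DMRTA1, none of which had a read in U87. FOCAD, at 6.99, 7.02 and 6.97 in SNB19 and 0 in both U87 libraries, and KLHL9, at 11.9, 11 and 11.4 in SNB19 and 0 in both U87 libraries, are named after their values were seen as its best expressed members beside MTAP. The treated libraries had the same order, with a median log2 fold change of 7.82 over the run. No copy number was measured.

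More receptor tyrosine kinases were called for SNB19 than for U87. Of 37 tested, 18 were called in both fits for SNB19 and 3 for U87, 48.6% and 8.11%, with a median log2 fold change of 1.41. The median was 0.93 with U87-EV-2 alone. In the treated libraries it was 0.997, and 17 were called for SNB19 and 9 for U87. ROR2, a receptor for Wnt ligands, was at 6.0, 6.46 and 5.64 in SNB19 and 0 in both U87 libraries, at least 272-fold higher in SNB19. FGFR2 and FGFR4 are receptors for fibroblast growth factors. FGFR2 was at 1.24, 1.19 and 1.21 in SNB19 and 0 in both U87 libraries and FGFR4 at 7.87, 7.5 and 7.51 in SNB19 and 0 and 0.0147 in U87, so both were nearly without reads in U87. DDR2, a receptor for fibrillar collagen, was called for U87, at 8.11, 8.93 and 8.68 in SNB19 and 7.9 and 25.6 in U87 (log2 fold change -1.24 ± 0.37 SE, adjusted p = 0.045), although its FPKM in U87-EV-1 was below those in SNB19. The call of DDR2 ended without any 1 SNB19 library (adjusted p 0.14 to 0.155) and by size without U87-EV-2 (log2 fold change -0.46). EGFR was at 14, 13 and 13.4 in SNB19 and 2.92 and 11.1 in U87 and was not called (log2 fold change 0.69 ± 0.44 SE, adjusted p = 0.248), with U87-EV-2 near SNB19 and U87-EV-1 well below. AXL and MET were high in both lines and were not called, with AXL at 84.6, 82.9 and 79.7 in SNB19 and 39.8 and 71 in U87 (log2 fold change 0.24 ± 0.20 SE, adjusted p = 0.362).

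Growth factors were called in both fits for U87 in 10 and for SNB19 in 7 of 32 cases, 31.2% and 21.9%, both above the shares of all genes. EREG, an EGFR ligand, was at 0.0211, 0 and 0.0225 in SNB19 and 40.7 and 86.2 in U87 (log2 fold change -12.20 ± 0.57 SE, adjusted p = 0.000385). HGF, the ligand of MET, was at 0.0123, 0 and 0 in SNB19 and 0.958 and 2.61 in U87, a ratio of 503 (95% interval 139 to 4165), and GDNF, the ligand of the RET and GFRA receptors, at 0.0141, 0 and 0 in SNB19 and 1.94 and 3.4 in U87, a ratio of 664 (95% interval 118 to 26312), both in favour of U87. PDGFB, the platelet-derived growth factor chain, was at 8.73, 8.26 and 8.94 in SNB19 and 0 in both U87 libraries, at least 253-fold higher in SNB19. GAS6, the ligand of AXL, was at 13.5, 14.1 and 14.4 in SNB19 and 0.845 and 0.462 in U87 (log2 fold change 3.97 ± 0.44 SE, adjusted p = 0.00235). VEGFC was at 38.1, 42.5 and 41.6 in SNB19 and 39.9 and 43.4 in U87 and was not called (log2 fold change -0.42 ± 0.18 SE, adjusted p = 0.118).

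TGF-beta and BMP genes were called on both sides at 9 and 9 of 28 tested, each above the share of all genes. BMP4 was higher in SNB19, at 2.21, 2.44 and 2.34 in SNB19 and 0.0201 and 0 in U87, a ratio of 167 (95% interval 29.7 to 6612), whereas BMP2 was higher in U87, at 0.184, 0.223 and 0.143 in SNB19 and 2.23 and 4.01 in U87 (log2 fold change -4.41 ± 0.30 SE, adjusted p = 0.000575). Of their secreted antagonists, NOG was higher in SNB19, at 1.6, 1.73 and 1.74 in SNB19 and 0.229 and 0.0752 in U87 (log2 fold change 2.99 ± 0.55 SE, adjusted p = 0.011), and its call ended without SNB19-NC-2 (adjusted p 0.0505). GREM1 was higher in U87, at 0.00413, 0.00998 and 0.0132 in SNB19 and 1.7 and 3.32 in U87 (log2 fold change -8.35 ± 0.39 SE, adjusted p = 0.000385). TGFB1 was at 105, 101 and 95.8 in SNB19 and 119 and 90.6 in U87 and was not called (log2 fold change -0.48 ± 0.29 SE, adjusted p = 0.224). The Wnt and Notch list was split 16 to 12 among 45 tested. WNT6, a Wnt ligand, was at 17.7, 20.1 and 18 in SNB19 and 0 in both U87 libraries, at least 245-fold higher in SNB19. SFRP1, a Wnt antagonist, and NRARP, a Notch target, had no read in U87 either, with SFRP1 at 8.05, 7.98 and 7.28 in SNB19 and 0 in both U87 libraries and NRARP at 6.55, 7.95 and 5.42 in SNB19 and 0 in both U87 libraries. WNT7B was higher in U87, at 0.155, 0.245 and 0.14 in SNB19 and 24.3 and 40.5 in U87 (log2 fold change -7.82 ± 0.31 SE, adjusted p = 0.000381), as were LEF1, a transcription factor of the Wnt pathway, at 0.0113, 0.0136 and 0.012 in SNB19 and 2.29 and 2.24 in U87, and DKK1, a Wnt antagonist, at 0, 0.0661 and 0 in SNB19 and 1.32 and 1.81 in U87. Axon guidance genes were called in both fits for SNB19 in 18 of 41 cases (43.9%) and for U87 in 8 (19.5%). Besides SEMA3F, EFNA1, an ephrin, was at 12.2, 11.8 and 9.9 in SNB19 and 0.0488 and 0.168 in U87 (log2 fold change 6.36 ± 0.39 SE, adjusted p = 0.000484), while ROBO1, the receptor for SLIT proteins, was at 0.222, 0.147 and 0.19 in SNB19 and 4.27 and 12.2 in U87 (log2 fold change -5.73 ± 0.41 SE, adjusted p = 0.000668).

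Cytokines and chemokines were called in both fits for U87 in 14 and for SNB19 in 9 of 40 tested (35% and 22.5%). Besides CSF3, the chemokine genes CXCL8, CXCL1, CXCL5, CXCL3 and CXCL2 were higher in U87 and, with MTHFD2L and EREG, formed a run at chr4:73740506-74388751, in which MTHFD2L was not called with U87-EV-2 alone. The call of MTHFD2L ended without any 1 SNB19 library (adjusted p 0.0584 to 0.0784) and by size without U87-EV-1 (log2 fold change -0.94), and that of CXCL3 ended without any 1 SNB19 library (adjusted p 0.0517 to 0.0634) and by size without U87-EV-2 (log2 fold change -0.94). CXCL8, which attracts neutrophils, was at 2.34, 2.21 and 3.34 in SNB19 and 40.7 and 55.7 in U87 (log2 fold change -4.55 ± 0.24 SE, adjusted p = 0.000398), and CXCL1 at 0 in all SNB19 libraries and 6.16 and 5.38 in U87, at least 149-fold higher in U87. TSLP, a cytokine of epithelial barriers, was at 0 in all SNB19 libraries and 3.51 and 2.74 in U87. IL18, a cytokine activated by inflammasomes, was at 10.7, 11.3 and 11.4 in SNB19 and 0.0236 and 0 in U87, a ratio of 678 (95% interval 122 to 26812) in favour of SNB19. CCL2, which attracts monocytes, was at 1.43, 1.84 and 1.56 in SNB19 and 0.125 and 0.0358 in U87 (log2 fold change 3.82 ± 0.57 SE, adjusted p = 0.0058). Interferon-stimulated genes were called at 6 and 6 of 43, shares of 14% and 14% that are near those of all genes. IFITM1 was at 3.69, 3.58 and 3.88 in SNB19 and 0 in both U87 libraries, and its neighbour IFITM3 was higher in U87, at 6.54, 8.71 and 8.22 in SNB19 and 106 and 43.2 in U87 (log2 fold change -3.74 ± 0.53 SE, adjusted p = 0.0049).

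Antigen presentation genes were called mostly for U87, among them chains of HLA class II. Of 28 tested, 11 were called in both fits for U87 and 1 for SNB19 (39.3% and 3.57%). They included CD74, the chaperone of class II molecules, and CIITA, the activator of class II genes, which was not called in the treated libraries. HLA-DRB1 was at 0 in all SNB19 libraries and 82.5 and 45 in U87, at least 1583-fold higher in U87, and HLA-DRA, its partner chain, at 0, 0 and 0.151 in SNB19 and 4.54 and 3.33 in U87, a ratio of 101 (95% interval 33.9 to 495). Reads of HLA-DRB1 and HLA-DRB5 can be exchanged between these similar genes, and the alleles of the lines can differ from the reference. NLRC5, the activator of class I genes, was the exception, at 15, 15.3 and 15.4 in SNB19 and 3.38 and 6.07 in U87 (log2 fold change 1.36 ± 0.19 SE, adjusted p = 0.00496). B2M, which encodes the light chain of class I molecules, was high in both lines, at 219.9, 217 and 220.5 in SNB19 and 140.0 and 116 in U87, and was not called (log2 fold change 0.36 ± 0.28 SE, adjusted p = 0.338).

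Genes of the ATF4 response to amino acid and endoplasmic reticulum stress were called in both fits for U87 in 15 of 33 cases (45.5%) and for SNB19 in 0, with a median log2 fold change of -0.997. DDIT3, which encodes CHOP, was at 2.96, 4.13 and 3.55 in SNB19 and 101 and 30.5 in U87 (log2 fold change -4.72 ± 0.67 SE, adjusted p = 0.00484), and SESN2, an inhibitor of mTORC1 signalling, at 11.9, 9.65 and 9.74 in SNB19 and 38.9 and 49.8 in U87 (log2 fold change -2.46 ± 0.18 SE, adjusted p = 0.000748). ATF4 itself was at 91.2, 97.6 and 94.1 in SNB19 and 165 and 113 in U87 and was not called (log2 fold change -0.997 ± 0.32 SE, adjusted p = 0.054). Hypoxia and glycolysis genes were called for U87 in 10 of 42 (23.8%) and for SNB19 in 1. In the treated libraries 13 were called for SNB19 and 8 for U87, with a median log2 fold change of 0.16 against -0.55 in the controls. Over all genes tested in the treated libraries the shares were 27.3% and 20.3%. VEGFA was at 5.66, 5.24 and 5.25 in SNB19 and 22.1 and 68.6 in U87 (log2 fold change -3.35 ± 0.37 SE, adjusted p = 0.0023), and ADM, which encodes adrenomedullin, at 3.71, 4.18 and 4.12 in SNB19 and 20.5 and 19.2 in U87 (log2 fold change -2.71 ± 0.22 SE, adjusted p = 0.000957). EGLN3, an oxygen-sensing prolyl hydroxylase and the 1 member called for SNB19 in both fits, was at 5.22, 5.07 and 5.66 in SNB19 and 0 in both U87 libraries. GAPDH and ENO1 were not called, with GAPDH at 748, 750.4 and 765 in SNB19 and 700.3 and 854 in U87 (log2 fold change -0.42 ± 0.21 SE, adjusted p = 0.162).

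Of the antioxidant list of NRF2 targets more were called for SNB19 than for U87, 10 against 3 of 32 tested in both fits (31.2% and 9.38%). GSTM3, a glutathione transferase, was at 14, 14.4 and 14.5 in SNB19 and 0.013 and 0 in U87, a ratio of 1579 (95% interval 283 to 62368), and GCLM, the modifier subunit of the enzyme that starts glutathione synthesis, at 39.4, 37.9 and 39.3 in SNB19 and 3.77 and 7.3 in U87 (log2 fold change 2.49 ± 0.23 SE, adjusted p = 0.00129). The aldehyde dehydrogenases that make retinoic acid took opposite sides: ALDH1A1 was at 1.06, 0.972 and 1.31 in SNB19 and 0.0652 and 0 in U87, a ratio of 24.8 (95% interval 8.31 to 121) in favour of SNB19, and ALDH1A3 at 0.0105, 0 and 0 in SNB19 and 7.57 and 12.7 in U87, a ratio of 3413 (95% interval 612 to 134900) in favour of U87. Metallothioneins, which bind zinc and copper, were called for U87 in 6 of the 8 tested genes of their list. The 2 uncalled members, SLC30A1 and MTF1, are not metallothioneins. The 6, from MT2A to MT1X, formed a run at chr16:56608199-56684196. Some of them, such as MT1L without a read in SNB19, could pass the count filter through U87 alone. In the treated libraries 4 were called for U87, and the median log2 fold change of the list was -0.80 against -3.55 in the controls. MT2A was at 244, 236 and 223 in SNB19 and 3857 and 1027 in U87 (log2 fold change -3.90 ± 0.69 SE, adjusted p = 0.00962) and MT1E at 0.172, 0 and 0 in SNB19 and 332 and 99.7 in U87, a ratio of 4659 (95% interval 1594 to 22599). In both, U87-EV-1 was over 3 times U87-EV-2, both U87 libraries were above all SNB19 libraries, and the near-identical sequences of the MT1 genes leave the split of their reads uncertain. The call of MT2A ended without any 1 SNB19 library (adjusted p 0.0519 to 0.0552), and that of MT1X ended without SNB19-NC-1 or SNB19-NC-2 (adjusted p 0.0639 to 0.0649). Lipid synthesis genes were called at 2 and 1 of 32, below the shares of all genes. In the treated libraries 17 were called for SNB19 and 1 for U87, with a median log2 fold change of 1.06 against -0.13 in the controls. FADS2, a fatty acid desaturase, was at 22.8, 24.5 and 23.1 in SNB19 and 1.67 and 2.34 in U87 (log2 fold change 3.19 ± 0.18 SE, adjusted p = 0.000419), and INSIG1, the sterol-dependent brake on SREBP, at 22, 22.5 and 21.6 in SNB19 and 80.6 and 108 in U87 (log2 fold change -2.46 ± 0.16 SE, adjusted p = 0.000533).

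For lists of short housekeeping genes the median depended on which U87 library was used. The 79 genes of the cytosolic ribosome had a median log2 fold change of -1.14 with both U87 libraries and of 0.13 with U87-EV-2 alone. The 66 genes of the respiratory chain gave -0.90 and 0.06. The treated libraries gave 0.17 and 0.36 for the same lists. RPS21 was at 888, 881 and 838 in SNB19 and 2432 and 602 in U87, so that U87-EV-1 stood above and U87-EV-2 below the SNB19 values. Its log2 fold change was -1.33 with both and 0.38 with U87-EV-2 alone. Of the ribosomal genes 1 was called in both fits, RPL39L, a form with a restricted tissue range, at 0.114, 0 and 0 in SNB19 and 93.6 and 27.5 in U87, a ratio of 1978 (95% interval 547 to 16343) in favour of U87. The part that the length pattern of U87-EV-1 has in other calls of short genes was not tested.

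Cancer-testis genes are expressed in the germ line and in some tumours. Of 40 list members found by symbol, 16 had enough reads to be tested, and 15 of these were called in both fits for SNB19 and 1, CT45A10, for U87. A member with reads in 1 line only could pass the count filter through that line alone, so the 15 are not a count over the list. A total of 9 neighbouring genes from MAGEA3 to MAGEA6 at chrX:152698752-152769747 formed a run. CT45A10 was at 0 in all SNB19 libraries and 6.97 and 3.23 in U87. Imprinted genes were called at 2 and 3 of 19, near the shares of all genes. PEG10, a paternally expressed gene derived from a retrotransposon, was at 0.551, 0.392 and 0.51 in SNB19 and 25.3 and 66.1 in U87 (log2 fold change -6.84 ± 0.39 SE, adjusted p = 0.000417). Of 24 clustered protocadherins tested, 5 were called in both fits for U87 and 2 for SNB19. In the treated libraries the list ran the other way, with 11 called for SNB19 and 4 for U87, and reads of the shared exons of these genes cannot be assigned with certainty.

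Zinc finger genes of chromosome 19 formed the longest runs. Neighbouring tested genes called in the same direction formed 71 runs of 5 or more, 40 higher in SNB19 and 31 higher in U87, and 11 of those higher in SNB19 lay on chromosome 19 and held 118 genes. The longest, at chr19:36313067-37369365, held 26 genes from LINC00665 to HKR1, all called in both fits, of which 17 have a ZNF or ZFP symbol and 21 had no read in U87. The next, at chr19:52397849-53037898, held 16, and runs of 12 lay at chr19:22052452-23833314 and at chr19:37371061-37817300. Such genes mostly encode KRAB zinc finger proteins, which bind DNA and recruit a corepressor that silences transposable elements. ZNF850, in the longest run, was at 3.65, 3.41 and 4.1 in SNB19 and 0 in both U87 libraries, at least 227-fold higher in SNB19, and ZNF569 at 2.85, 2.98 and 2.84 in SNB19 and 0 in both U87 libraries, at least 112-fold higher. HKR1, at the edge of the run, was at 5.08, 5.34 and 5.46 in SNB19 and 0.198 and 0.306 in U87 (log2 fold change 4.04 ± 0.20 SE, adjusted p = 0.000398), low but not absent in U87. ZNF146, just before the run, was at 21.4, 20.3 and 21.7 in SNB19 and 15.5 and 30.7 in U87 and was not called (log2 fold change -0.45 ± 0.21 SE, adjusted p = 0.138).

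Counted by symbol, a set chosen after the runs were seen and so given with no test, 123 of 232 tested ZNF and ZFP genes on chromosome 19 were called in both fits for SNB19 (53%) and 9 for U87. On the other chromosomes the counts were 48 and 26 of 242. Of other genes on chromosome 19, 17.6% were called for SNB19, close to the 16.5% of all genes. No read in U87 was found for 79 of the chromosome 19 zinc finger genes called, and 117 of the 123 were called the same way in the treated libraries. These genes were weakly expressed, with a median FPKM of 1.27 in SNB19 and 0.247 in U87, and reads of repeated zinc finger exons can be shared between neighbours.

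**Figure D5:**
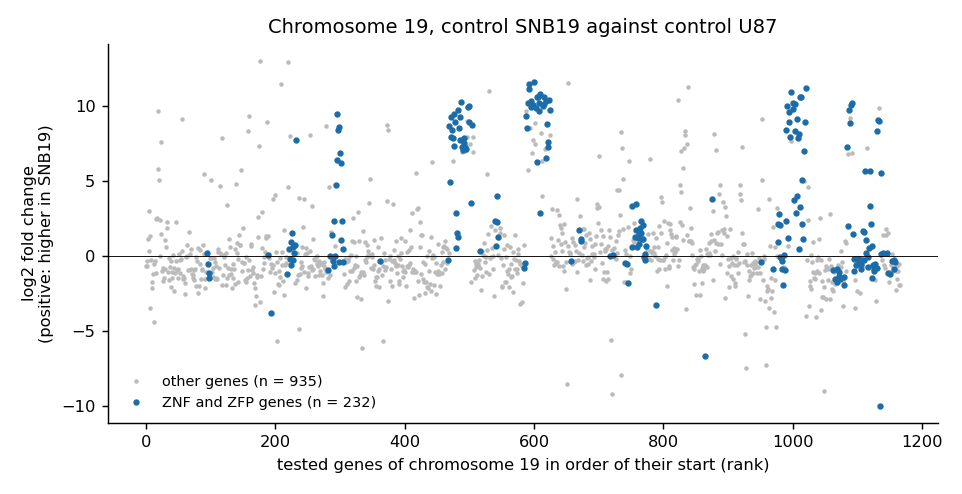
Log2 fold change of control SNB19 over control U87 (vertical axis) for each tested gene of chromosome 19 in order of its start (horizontal axis, rank), with ZNF and ZFP genes as larger points. Many zinc finger genes stand in a few tall columns near 7 to 11 on the fitted scale, where U87 mostly had no read. The median of all 232 was 1.70. Other genes of the chromosome had a median of -0.27, with calls in both directions.

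The 232 bases before the ZNF850 gene of GENCODE v29, at chr19:36772826-36773057 on the minus strand of GRCh38.p14 and from the same table, are shown as the start of a gene of the longest run without reads in U87, with their 17 CG dinucleotides in capitals.
ZNF850: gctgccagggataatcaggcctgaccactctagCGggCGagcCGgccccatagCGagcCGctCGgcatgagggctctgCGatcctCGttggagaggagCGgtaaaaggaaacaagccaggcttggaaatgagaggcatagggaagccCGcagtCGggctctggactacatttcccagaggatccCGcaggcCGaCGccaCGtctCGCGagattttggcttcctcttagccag
The motif CG reads the same on both strands. The table of promoters matched 66 of 79 chromosome 19 zinc finger genes called in both fits without a read in U87, with a median of 14.5 CG in the 250 bases before RefSeq's start, and 79 of 90 that were not called, with a median of 17. Over all 27305 promoters of the table the median was 11, and 93.6% held at least 1. DNA methylation was not measured.

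Whole chromosomes also differed in their medians. Chromosome 18 had a median log2 fold change of -0.84 over 240 tested genes. With both U87 libraries 40.4% of them were called higher in U87, against 15.6% of all genes tested. With U87-EV-2 alone the median was -0.88 and in the treated libraries -0.84. Within it, a run at chr18:63637259-68715298 from SERPINB4 to TMX3 held 9 genes, all higher in U87. Chromosome 15 had the highest median, 0.65, and 0.54 and 0.62 in the other comparisons. With both U87 libraries 26.7% of its tested genes were called higher in SNB19, against 18.5% of all genes tested. Medians on chromosomes 1, 5 and X were 0.42, 0.38 and 0.38, and those on 8, 14 and 21 were -0.48, -0.38 and -0.43. Each of these kept its sign with U87-EV-2 alone and in the treated libraries. Chromosome 19 did not, with -0.07 with both U87 libraries, 0.17 with U87-EV-2 alone and 0.23 in the treated libraries. A median of RNA levels over a chromosome is not a copy number, which was not measured here.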

How the data were processed

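Poly-A RNA of 10 libraries had been sequenced as paired reads, per the labels' protocols. Counts per gene were made by the authors with HTSeq 0.11.2 from HISAT2 alignments to GRCh38, as the submitters' processing notes name them, and the deposited FPKM values are the authors' counts per kilobase of gene, scaled to each library's total count, without TMM scaling. Whether counting used strand is not stated in the sources used here, so reads of antisense partners may be mixed, and near-identical families (MAGEA and CSAG, MT1, PCDHG, KRT81 and KRT86, HLA-DRB, CT45, ZNF) are uncertain in the split of their reads. All count and FPKM columns matched a sample.

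Counts were tested with edgeR 4.0.16 in R 4.3.3 (filterByExpr, TMM, quasi-likelihood test, Benjamini-Hochberg over all genes tested), for the 5 control libraries, again with U87-EV-2 as the only U87 library, and in the treated libraries. A gene was called at an adjusted p under 0.05 and an absolute log2 fold change over 1. The code was tested on simulated data with known changes. DESeq2 1.42.0, limma-voom (limma 3.58.1), other scaling, other filters and left-out libraries were alternatives. Same-numbered controls shared only a number, so no block was used in the reported values.

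The members and gene lists were chosen with earlier results of these data known. The named genes were the 12 per direction with the highest FPKM among those called in both fits, without overlap and with an absolute log2 fold change over 5. To these came, per list, the 3 called genes per direction with the largest difference and up to 2 abundant uncalled ones, from which the text names a part, the study's genes, cell type markers, and the longest runs of neighbouring called genes. CXCL8, HOXB7, MT2A, COL5A1, FOCAD, KLHL9, ZNF146, the ends and other members of runs, list members given without values, and the genes of the closing paragraphs were named after their values were seen. Y-linked genes and XIST are not reported. Some other genes of the rule, and 1 gene list, are not reported here. Gene positions came from GENCODE v29 on GRCh38. Promoters came from RefSeq on GRCh38.p14, matched by gene identifier and, where that failed, by symbol. The 2 sequences shown were matched by symbol. Intervals and lower bounds cover counting error only.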

Additional observations from a re-analysis of the deposited data

Results flagged for a closer look

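In 3 of the study's genes the control and the treated libraries differed in opposite directions between the lines, with a call in both. ANGPTL4 had a log2 fold change of -2.57 in the controls and 3.04 in the treated libraries. IL11RA had -4.13 and 1.60. MEOX2 had -7.10 in the treated libraries and no read in the U87 controls, where it was at least 127-fold higher in SNB19. The treated libraries carried MEOX2 siRNA in SNB19 and MEOX2 overexpression in U87, and the difference between the sets was itself not tested. MEOX2 was the gene manipulated. The paper chose ANGPTL4 and IL11RA from these same libraries because they moved oppositely under knockdown and overexpression. A reversal of the line difference was therefore favoured by that choice.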

How the results depend on the processing

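Leaving out 1 library at a time gave 3244 to 9246 calls, 1932 to 5175 for SNB19 and 1312 to 4071 for U87. Without SNB19-NC-1, NC-2 and NC-3 there were 3244, 3321 and 3317, without U87-EV-1 5983, and without U87-EV-2 9246. Leaving out a U87 library leaves 1 in that group, and the estimated dispersion, 0.0874 with both, was 0.00149 with U87-EV-2 alone. A log2 fold change over 2 with an adjusted p under 0.01 gave 2310 (1445 and 865). The treated libraries gave 4517 for SNB19. The replicate block gave 3810 calls, 2274 for SNB19 and 1536 for U87. Same-numbered controls had a correlation of deviations of -0.0318 for number 1 and -0.115 for number 2. With 2 U87 controls the deviations of U87-EV-1 mirror those of U87-EV-2, so these values cannot decide whether the numbers pair the libraries. DESeq2, limma-voom, RLE size factors, the other filters, all 10 libraries in a single fit and no fold threshold gave 5080 to 7010 calls. The median log2 fold change of all genes was 0.47 with DESeq2 and 0.45 without the count filter, which test 34567 and 30897 genes.

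Of the named genes called, most of which were chosen through both fits, VIM, MTHFD2L, SLC1A3 and TCEAL9 were not called with U87-EV-2 alone. The log2 fold change turned in sign, past the call threshold, in ANGPTL4 (3.04), IL11RA (1.60), MEOX2 (-7.10) and EGFR (-1.24) in the treated libraries, where EGFR had not been called in the controls. CIITA (0.12) and SOX4 (-0.45) turned in sign there without a call. Among genes not called, CTSD, RPS21 and COL5A1 turned in sign with U87-EV-2 alone, and AXL, COL6A1, ENO1, EPCAM, GFAP and RPS21 in the treated libraries. Calls that ended without 1 library are given beside their results, and the block ended 13 calls of named genes (CD44, CHI3L1, CXCL3, DDR2, HES1, HOXB3, HOXB4, ITGA3, MTHFD2L, NFIA, NLRC5, TCEAL9 and VIM). Of 52 list and chromosome medians, 28 moved by more than their spread without U87-EV-1, 41 without U87-EV-2 and 37 in the treated libraries. With 2 U87 libraries, of which 1 stood apart, small differences in short or long genes were not detectable at this depth of replication.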

Other observations

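Further runs of neighbouring genes divided the lines, and the genes named here were chosen after their values were seen. At chr12:52249300-52652164 hair keratins next to KRT81 were higher in SNB19, with KRT86 at 24.5, 25.2 and 23.2 in SNB19 and 0.103 and 0.0594 in U87 and KRT83 at 2.22, 2.41 and 1.82 in SNB19 and 0 in both U87 libraries. At chr1:93885205-94963270 the run that holds GCLM was higher in SNB19: CNN3, which encodes an actin-binding calponin, was at 147, 151 and 151 in SNB19 and 4.73 and 11.2 in U87, and F3, the tissue factor that starts coagulation, at 51.5, 50.3 and 49.5 in SNB19 and 8.16 and 15.6 in U87. In both genes U87 was read well above 0 and below every SNB19 library. At chr7:150433654-151014588 GIMAP genes, GTPases of lymphocytes, were higher in SNB19 at low levels, with GIMAP2 at 1.18, 1.7 and 1.54 in SNB19 and 0.0295 and 0.102 in U87, and the potassium channel gene KCNH2 in the same run was at 1.71, 1.74 and 1.76 in SNB19 and 0 in both U87 libraries. ABLIM1, an actin-binding LIM protein, was the most abundant gene of a run at chr10:114044056-114685003, at 18.4, 18.2 and 18.7 in SNB19 and 0.142 and 0.156 in U87.

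Other runs were higher in U87. At chr11:65866441-66002176 FOSL1, a subunit of the AP-1 transcription factor, was at 39.97, 40.8 and 37.5 in SNB19 and 222 and 333 in U87. At chr7:122301394-127253294 CADPS2, which primes secretory vesicles, was at 0 in all SNB19 libraries and 2.33 and 5.58 in U87, and FEZF1, a factor of the developing forebrain, at 0 in all SNB19 libraries and 0.569 and 0.463 in U87. At chrX:21940573-23786226 the polyamine genes SMS, spermine synthase, and SAT1, which acetylates spermidine and spermine, were called together, with SMS at 53.6, 53.1 and 52.4 in SNB19 and 208 and 169 in U87 and SAT1 at 8.68, 8.9 and 8.59 in SNB19 and 43.8 and 25.6 in U87. At chrX:103215092-103358462 TCEAL7 was at 0.0513, 0.186 and 0.164 in SNB19 and 30.4 and 24.3 in U87 and BEX2 at 0.308, 0.062 and 0.329 in SNB19 and 12.1 and 5.75 in U87, while TCEAL9 in the same run, at 25.3, 27.7 and 26.2 in SNB19 and 53.4 and 37.3 in U87, was not called with U87-EV-2 alone. The call of TCEAL9 ended without any 1 SNB19 library (adjusted p 0.103 to 0.116) and by size without U87-EV-1 (log2 fold change -0.65).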
